A study of Mus musculus with 12 samples.

Results

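The genes described here are 10 genes of dolichol synthesis and of the early dolichol-linked sugar steps, namely Nus1, Dhdds, Srd5a3, Dolk, Dolpp1, Dpagt1, Dpm1, Dpm2, Dpm3 and Alg5. They were picked by gene symbol and make up 10 of the 19429 genes listed in the series. All 10 are listed in both deposited tables, which hold 19262 and 16785 genes, and all 10 passed the filter on low values in both (a signal of 1 or more in 3 or more of 6 libraries). Nus1 was chosen because of its values in the same comparisons, so its levels and changes are given as a description, with no test. The other 9 genes, called the partner genes here, were taken for their role, and their changes were tested in a fit over all genes.

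Messenger RNA was sequenced in 12 libraries of primary cultures of the stromal vascular fraction (SVF) of white fat from 6-week-old C57BL/6 mice, a mixed cell population that holds the progenitors of fat cells. The 3 TKO libraries came from cells lacking all miR-26 genes (miR-26b-/-, miR-26a-1-/- and miR-26a-2-/-), and the 3 WT libraries from wild-type cells, both grown to confluency. The 3 Dox libraries came from cells carrying M2rtTA and eGFP.miR-26a that received doxycycline at 1 mg/ml for 4 days, and the 3 CTL libraries from cells with the same transgenes and no doxycycline. The study asked which genes miR-26 targets in adipocyte progenitors. The promoter that drives M2rtTA is not given in the sources used here. The labels give doxycycline only for cells with the transgenes, so effects of the drug itself and of induced miR-26a cannot be told apart. Whether replicates came from different animals or cultures is not given in the labels, so the p-values measure only the spread between these samples, which may be technical. The level of mature miR-26 was not analysed here, and the genotypes and the induction are taken from the labels.

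The values are a signal, the reads of a gene scaled by the authors so that libraries of different depth can be compared within a table. Recovered depth ran from 71455171 to 83461531 reads in TKO, from 54978109 to 61307152 in WT, from 19301969 to 25785439 in Dox and from 20182665 to 24122542 in CTL. The 10 adipose progenitor markers summed to a signal of 27184 to 28064 in TKO and 21014 to 22265 in WT, and to 26283 to 40694 in Dox and 25612 to 38353 in CTL. Most of that sum was Col1a1 and Col3a1, and the other 8 markers summed to 3004 to 4725 in TKO and 4244 to 4965 in WT, and to 3137 to 3968 in Dox and 3595 to 4208 in CTL. Dpp4 and Cd34 were low among them, at 2.39 to 39.9 and 12.8 to 39.5 over all libraries. Summed adipocyte markers were far lower, at 127, 131 and 29.3 in TKO replicates 1, 2 and 3 and 28.4 to 33.5 in WT, and at 32.7 to 40.2 in Dox and 37.2 to 59.8 in CTL (6 markers, of which Lep was not analysed here in either table and Retn not in the second).

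Dolichol is a long isoprenoid lipid of the endoplasmic reticulum. In its phosphorylated form it carries the sugars that are passed to proteins in N-glycosylation, O-mannosylation and C-mannosylation and to the glycosylphosphatidylinositol (GPI) anchor. Its chain is built by cis-prenyltransferase, a complex of the catalytic subunit encoded by Dhdds and the subunit encoded by Nus1, which is also known as the Nogo-B receptor. MicroRNAs such as miR-26 repress messenger RNAs that carry, in the 3' untranslated region (UTR), a sequence able to pair with the microRNA seed, bases 2 to 8 from its 5' end.

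The mature sequences and the matching 3' UTR sites are printed because the mutant cells lack these microRNAs and the sites differ between Nus1 and its partner genes. The miR-26a and miR-26b sequences are from RefSeq (GRCm38.p6), 5' to 3', with the seed in capitals, and both carry the same seed. Mature miR-26a lies at chr9:119031811-119031832 (Mir26a-1) and chr10:126995543-126995564 (Mir26a-2), and miR-26b at chr1:74394324-74394344 (Mir26b), all on the plus strand.
mmu-miR-26a-5p: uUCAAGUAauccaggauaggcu
mmu-miR-26b-5p: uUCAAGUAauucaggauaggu
The 3' UTRs of GENCODE vM21 transcripts (GRCm38) were searched on the sense strand for TACTTGAA (8 bases, pairing with bases 2 to 8 plus an A opposite base 1), for TACTTGA (7 bases, pairing with bases 2 to 8) and for ACTTGAA (7 bases, pairing with bases 2 to 7 plus that A), with the shorter 2 counted only outside an 8-base match. Capitals mark the match in the sites below, which are written 5' to 3' on the transcript and lie on the plus strand of the genome.
Nus1, 7-base match to bases 2 to 8: aaaaagtgtctTACTTGAgagcgaatgag
Nus1, 8-base match: atttttaaataTACTTGAAataaaatgatt
Dolpp1, 7-base match with A: tcttcatccccACTTGAAcaaaagagagg
Dpagt1, 7-base match with A: caccttgctggACTTGAAgtccgctagtt
Alg5, 7-base match with A: catgcaatttcACTTGAAatcaagatttt
Both Nus1 sites lie in exon 5, the last exon, of Nus1 (ENSMUSG00000023068.16, chr10:52417547-52440183, plus strand), whose 3' UTR is 3516 bases long. The 7-base match lies at chr10:52436811-52436817, bases 144 to 150 of the 3' UTR. The 8-base match lies at chr10:52437983-52437990, bases 1316 to 1323 of the 3' UTR. The partner gene sites lie at chr2:30399979-30399985 (Dolpp1), chr9:44333286-44333292 (Dpagt1) and chr3:54749389-54749395 (Alg5), each in the last exon. Dhdds, Srd5a3, Dolk, Dpm1, Dpm2 and Dpm3 held no 7- or 8-base match in the 3' UTR used, and none of the 9 partner genes held a match to bases 2 to 8.

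Matches of this kind are common in long 3' UTRs. Among the 11829 genes tested in TKO against WT that have a 3' UTR, 5.09% held an 8-base match, 11.6% held a match to bases 2 to 8 of either length, and 1.44% held 2 or more such matches, as Nus1 does. Among the 1318 of them whose 3' UTR was within 20% of the Nus1 length, those shares were 11.1%, 24.5% and 3.64%. A match is a description of the letters and was not tested as a site. The median log2 fold change of the 170 genes with 2 or more matches to bases 2 to 8 was -0.18 in TKO against WT, and that of the 1318 genes of like 3' UTR length was -0.12, whereas Nus1 stood at 0.60. The median 3' UTR was 3872 bases in the first set and 3391 bases in the second. These fold changes were not corrected for transcript length. In Dox against CTL the median was -0.11 for the 172 genes with 2 or more such matches and -0.01 for the 1315 genes of like 3' UTR length, whereas Nus1 stood at -0.60.

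**Figure D1:**
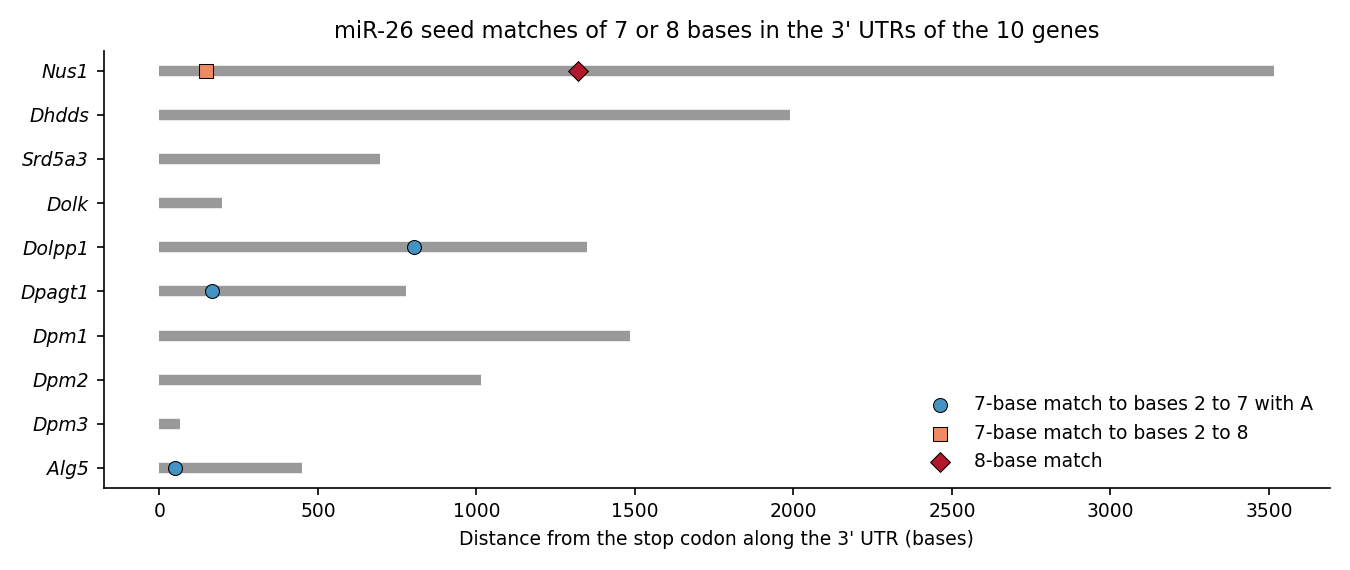
miR-26 seed matches of 7 or 8 bases along the 3' UTRs of the 10 genes. Each grey bar is a 3' UTR drawn to scale in bases from the stop codon, and symbols mark the kind of match; Nus1 has the longest bar, at 3516 bases, with an 8-base match and a 7-base match to bases 2 to 8, and 3 partner genes have 1 shorter match each.

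Nus1 was higher in cells without miR-26 and lower in cells given doxycycline to induce miR-26a. Its signal was 160.2, 142.0 and 142.1 in the TKO libraries, against 101, 98.1 and 91.9 in the WT libraries. Every TKO library lay above every WT library, the lowest TKO value exceeding the highest WT value by more than the range of the WT libraries. The group means were 148 ± 10.5 in TKO and 97.0 ± 4.66 in WT (SD, n = 3 each), a ratio of 1.53 and a log2 fold change of 0.60 on the log2(signal + 1) scale used throughout. In the second table the Nus1 signal was 65.8, 66.3 and 64.4 in the Dox libraries, against 95.8, 96.0 and 107.9 in the CTL libraries. The Dox libraries lay close together, all below the CTL libraries, of which replicate 3 was the highest. The means were 65.5 ± 0.996 in Dox and 99.9 ± 6.96 in CTL (SD, n = 3 each), a ratio of 0.656 and a log2 fold change of -0.60. These values rest on 11251 to 12821 recovered reads per TKO library, 5062 to 5886 per WT library, 1308 to 1745 per Dox library and 2054 to 2363 per CTL library. The log2 fold changes in the authors' deposited table were 0.61 and -0.61. In these bulk samples a lower share of cells that express a gene and less of its RNA per cell cannot be told apart.

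The size of the Nus1 difference between TKO and WT depended on how library composition and transcript properties were treated. It was 0.73 when libraries were scaled by their total reads alone, a scaling that shifts the median of all genes by 0.11. It was 0.81 after removal of the dependence on transcript length and GC content. Across 12635 genes the log2 fold change in TKO against WT correlated with transcript length at a Spearman rho of -0.32 and with GC content at 0.31, and the Nus1 transcript is long (4605 bases) and of low GC content (42.3%). Leaving out each library in turn gave 0.55 to 0.63 in TKO against WT and -0.63 to -0.54 in Dox against CTL.

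**Figure D2:**
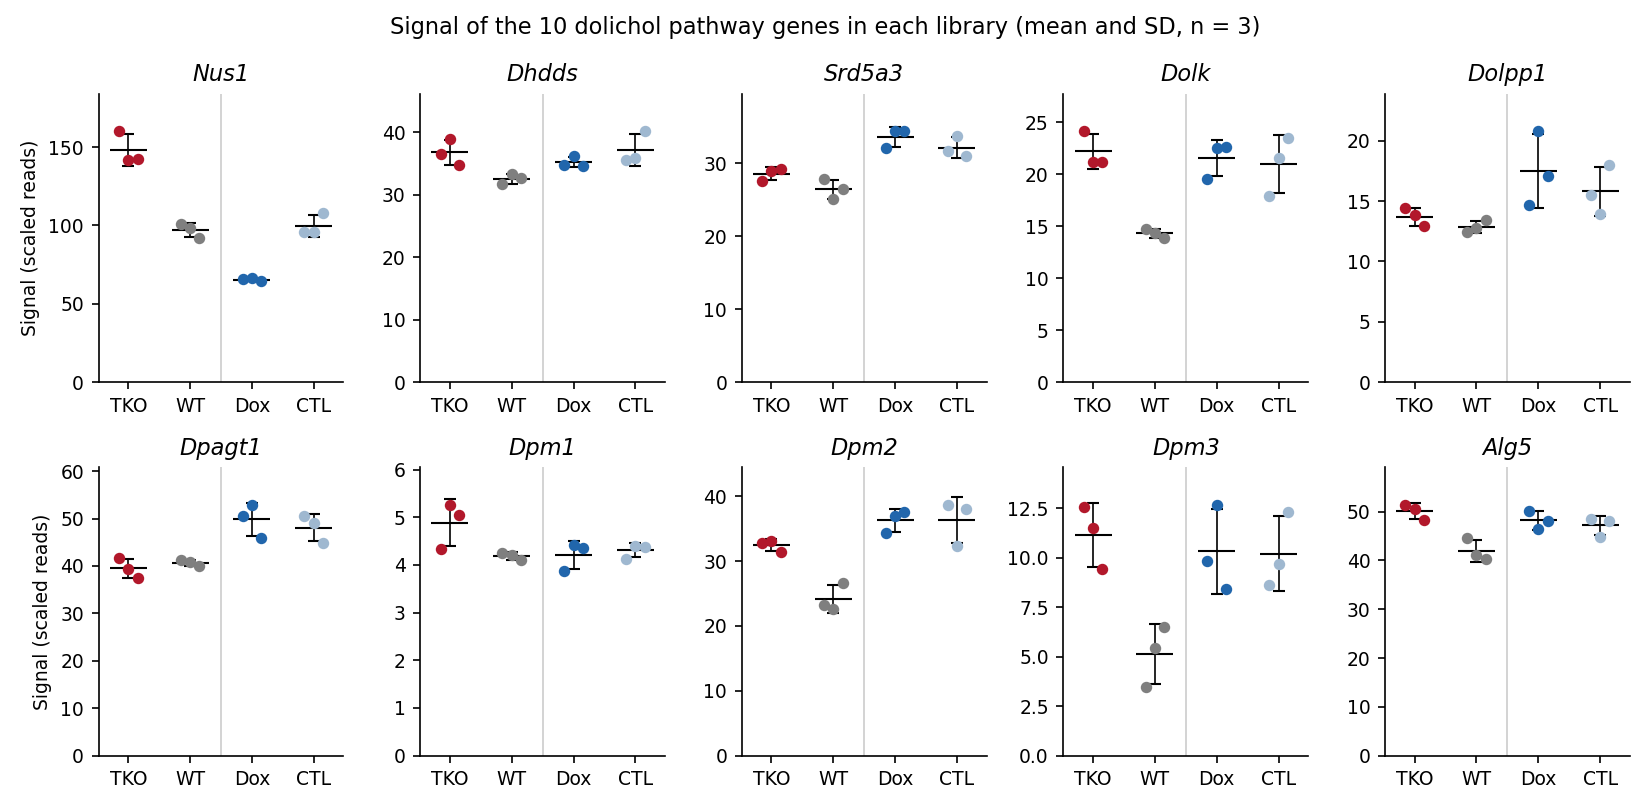
Signal (scaled reads, linear axes from 0) of the 10 genes in each library of the TKO, WT, Dox and CTL groups, with the mean as a long bar and the SD as error bars (n = 3). The TKO and WT table was normalized apart from the Dox and CTL table, marked by the grey line; Nus1 is above its comparison group in all TKO libraries (142 to 160.2 against 91.9 to 101) and below it in all Dox libraries (64.4 to 66.3 against 95.8 to 107.9).

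Dhdds, which encodes the catalytic partner of the Nus1 protein, changed less. Its signal was 36.6, 38.9 and 34.8 in TKO and 31.7, 33.3 and 32.7 in WT. Every TKO value was above every WT value, but the change of 0.17 ± 0.066 (SE, n = 3 per group) did not pass the test (limma adjusted p = 0.078). It passed only when libraries were scaled by total reads alone, at 0.29 (limma adjusted p = 0.021). In Dox the Dhdds signal was 34.8, 36.1 and 34.6, against 35.6, 35.9 and 40.2 in CTL, and the groups overlapped (log2 fold change -0.08, 95% confidence interval -0.28 to 0.12, limma adjusted p = 0.98). Per base of transcript, the ratio of Nus1 to Dhdds was 3.06, 2.55 and 2.85 in TKO, against 2.23, 2.06 and 1.96 in WT. It was 1.32, 1.28 and 1.30 in Dox, against 1.88, 1.87 and 1.88 in CTL. The ratio thus averaged 2.82 ± 0.26 in TKO and 2.08 ± 0.13 in WT, and 1.30 ± 0.019 in Dox and 1.88 ± 0.0073 in CTL (SD, n = 3 each), with no overlap between the groups of either comparison. Since Nus1 was chosen for these values, the ratio was not tested.

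Among the 9 partner genes, 4 rose in TKO against WT and 0 fell (limma with a trend, adjusted p under 0.05), or 44.4% of them. In that comparison 45.8% of the 12649 genes tested were called, 23.2% as higher and 22.7% as lower, so the share of partner genes called was close to the background and all 4 calls were in 1 direction. Of all genes called, 50.6% were higher with the deposited scaling and 66.7% under scaling by total reads alone, where 5 of the 9 partner genes were called, all higher. The groups did not overlap for 6 of the 9 genes, all higher in TKO, against 58.8% of all genes tested, of which 29.4% were higher. The median log2 fold change of the 9 genes was 0.18, against -0.00085 over all genes tested. After the trend with length and GC content was removed, 2 of the 9 were called as higher, Dolk and Dpm3, against 22.4% of all genes as higher and 45.8% in either direction, and the median was 0.14. With the replicate number as a block the same 4 genes were called, against 40.3% of all genes, and with the block and the trend removal together Dolk alone was called, against 38.8%. Same-numbered TKO and WT libraries did not consistently deviate together (correlations of 0.45, -0.13 and -0.29), so the block does not rest on a pairing here.

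Of the later steps of dolichol synthesis, Srd5a3, a reductase in the conversion of polyprenol to dolichol, had a signal of 27.5, 29.0 and 29.2 in TKO and 27.8, 25.2 and 26.4 in WT. The groups overlapped, and the log2 fold change of 0.11 ± 0.067 (SE) did not pass (limma adjusted p = 0.23). Dolk encodes dolichol kinase, which makes dolichol phosphate. Its signal was 24.1, 21.2 and 21.2 in TKO, against 14.7, 14.3 and 13.8 in WT. Dolk was higher in all TKO libraries, and it rose by 0.60 ± 0.079 on the log2 scale (SE, limma adjusted p = 0.0016), a size close to that of Nus1. The Dolk call was kept in each of the 15 alternatives run, with a change of 0.40 to 0.72, the lowest after removal of the length and GC trend (limma adjusted p = 0.016). The Dolk 3' UTR is 196 bases long and holds no seed match of 7 or 8 bases. Dolpp1 encodes the phosphatase that returns dolichyl pyrophosphate to the dolichyl phosphate pool. Its signal was 14.4, 13.8 and 12.9 in TKO and 12.4, 12.7 and 13.4 in WT, overlapping groups with a log2 fold change of 0.08 ± 0.076 (SE, limma adjusted p = 0.40).

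Dpagt1 encodes the enzyme that puts the first sugar phosphate on dolichol phosphate to start the N-glycan precursor. Its signal was 41.6, 39.5 and 37.5 in TKO and 41.3, 40.8 and 39.98 in WT, and its log2 fold change of -0.04 ± 0.063 (SE) did not pass (limma adjusted p = 0.62). Alg5 encodes the enzyme that makes dolichol-phosphate glucose. It read 51.4, 50.6 and 48.4 in TKO, against 44.5, 41.2 and 40.2 in WT. The groups did not overlap, and Alg5 rose by 0.25 ± 0.065 (SE, limma adjusted p = 0.020), the smallest of the 4 changes called. The Alg5 call ended without WT replicate 2 (limma adjusted p = 0.083) or WT replicate 3 (0.074), under median centring (0.20, adjusted p = 0.055) and after removal of the length and GC trend (0.13, adjusted p = 0.080).

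The subunits of dolichol-phosphate mannose synthase differed in how far they moved. Dpm1 encodes the catalytic subunit, and Dpm2 and Dpm3 encode the membrane subunits that stabilise it. Dpm3 had a signal of 12.6, 11.5 and 9.42 in TKO, against 3.48, 5.47 and 6.48 in WT. The groups were well apart, although WT replicate 1 was low, and Dpm3 rose by 1.01 ± 0.21 (SE, limma adjusted p = 0.0078). Dpm2 read 32.8, 33.1 and 31.4 in TKO and 23.3, 22.6 and 26.6 in WT. No libraries overlapped, and Dpm2 rose by 0.41 ± 0.080 (SE, limma adjusted p = 0.0065). Removing the length and GC trend left Dpm3 at 0.65 (limma adjusted p = 0.028, and 0.066 with the replicate number as a block) and ended the Dpm2 call (0.15, adjusted p = 0.14). Dpm1 had a signal of 4.32, 5.26 and 5.05 in TKO and 4.25, 4.199 and 4.11 in WT, with a log2 fold change of 0.18 ± 0.097 (SE, limma adjusted p = 0.18). The Dpm1 value is uncertain, because 39.0% of its exon bases lie within exons of Gm20716 on the same strand and 37.7% of its stretches of 50 bases occur there too, so reads could be split or lost between them. In the authors' deposited table the false discovery rates were 0.00019 for Dolk, 0.013 for Dpm2, 0.00081 for Dpm3 and 0.19 for Alg5.

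**Figure D3:**
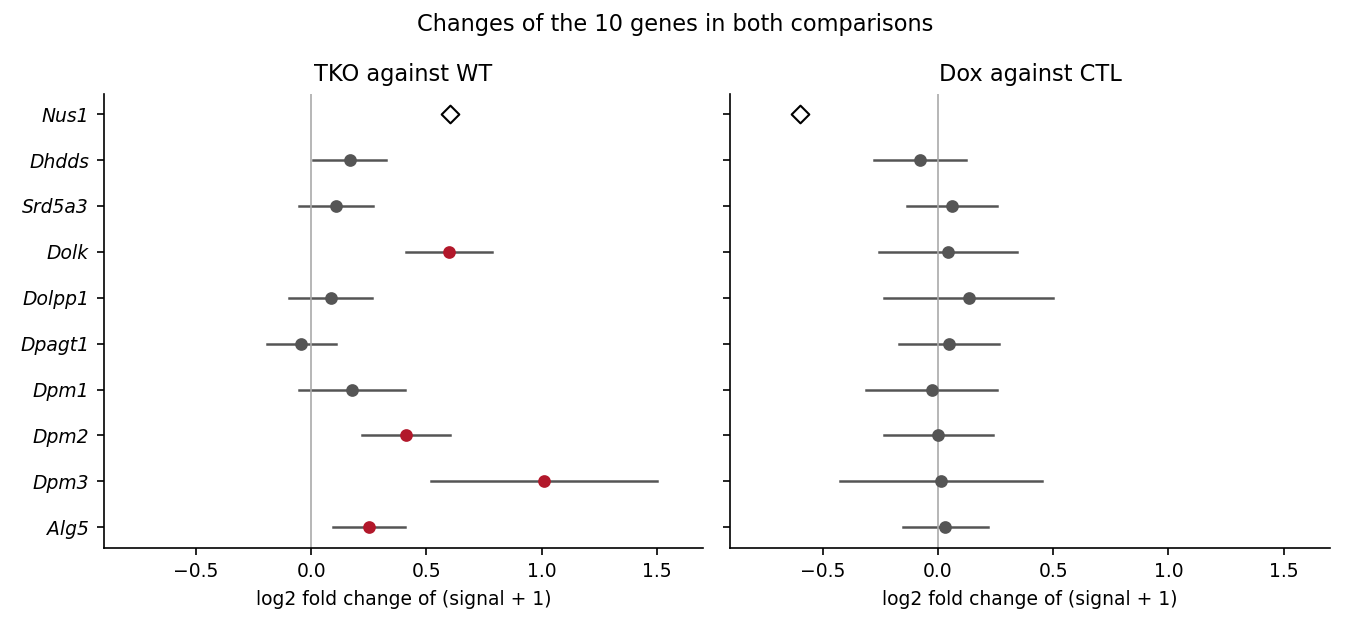
Log2 fold changes of (signal + 1) of the 10 genes in TKO against WT (left) and Dox against CTL (right), n = 3 libraries per group. Circles are partner genes with their 95% confidence interval from limma, red where the adjusted p is under 0.05; open diamonds are Nus1, given without an interval because it was chosen for these values, at 0.60 and -0.60.

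With doxycycline no partner gene passed. In Dox against CTL, limma called 0 of the 9 partner genes, edgeR 0 and DESeq2 0, and 0 of the 9 had an unadjusted p under 0.05. The background in that comparison was 0% of 12634 genes by limma (748 at an unadjusted p under 0.05), 0 genes by edgeR and 99 by DESeq2, so this count says little about the partner genes. Both edgeR and DESeq2 were rerun here on recovered reads, and genes passing in the authors' deposited table, which was made with another edgeR test, were not counted. With the replicate number as a block, which pairs the Dox and CTL libraries, limma called 2.1% of all genes and again 0 of the 9, and with the block and the trend removal together it called 7.38% of all genes and 0 of the 9. The groups overlapped for all 9 partner genes, whereas they did not overlap for 12.2% of all genes tested.

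The partner genes that rose in TKO stood near 0 in Dox against CTL, with intervals that reached to both sides of 0. Dolk read 19.6, 22.5 and 22.6 in Dox and 17.9, 21.6 and 23.5 in CTL, a log2 fold change of 0.04 (95% confidence interval -0.26 to 0.34). Dpm3 read 9.86, 12.7 and 8.45 in Dox and 8.63, 9.67 and 12.3 in CTL, a change of 0.01 (-0.42 to 0.45). Its libraries spread over the same range in both groups. Dpm2 read 34.3, 37.0 and 37.6 in Dox and 38.7, 32.3 and 38.1 in CTL, a change of 0.0018 (-0.24 to 0.24). Alg5 read 50.2, 46.4 and 48.2 in Dox and 48.5, 44.9 and 48.1 in CTL, a change of 0.03 (-0.15 to 0.22). For each of these genes, a fall as large as its TKO change without trend removal lies outside the interval. Of the partner genes that did not pass in either comparison, Srd5a3 was at 0.06 (-0.13 to 0.26), Dolpp1 at 0.13 (-0.23 to 0.50), Dpagt1 at 0.05 (-0.17 to 0.26) and Dpm1 at -0.03 (-0.31 to 0.26). These intervals come from the fit without the replicate block and do not show that the genes were unaffected by doxycycline. Within same-numbered pairs Alg5, Srd5a3 and Dpagt1 were higher in Dox in 3 of 3 pairs, and with the block their limma adjusted p were 0.89, 0.76 and 0.81. Some of these gaps were small, as for Alg5 in replicate 3 (48.2 in Dox, 48.1 in CTL). The share of all genes with 3 pairs in 1 direction was not computed, so no result about these genes is drawn from it.

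Per kilobase of transcript, taking the longest coding transcript of each gene, Nus1 was among the 5 genes with the highest level in every group. Shorter transcripts were not tried, so the order depends on this choice. In TKO it stood second at a mean signal of 32.2 per kb, overlapping Alg5 at 34.1 and above Dpm2 at 23.0. In WT it was also second at 21.1 per kb, below Alg5 at 28.6 and above Dpagt1 at 18.5, with no overlap on either side. In Dox it was in place 5 at 14.2 per kb, below Srd5a3 at 19.2 and overlapping Dpm3 at 12.5. In CTL it was in place 4 at 21.7 per kb, overlapping Dpagt1 at 21.8 and above Srd5a3 at 18.4. The other WT levels per kb were 17.1 for Dpm2, 15.1 for Srd5a3, 10.1 for Dhdds, 6.80 for Dolk, 6.22 for Dpm3, 5.61 for Dolpp1 and 1.83 for Dpm1. In that order Dpagt1 overlapped Dpm2, Dolk overlapped Dpm3, and Dpm3 overlapped Dolpp1. Alg5 was first and Dpm1 last in all 4 groups. The Dpm1 level is uncertain, because 39.0% of its exon bases lie within exons of Gm20716 on the same strand. Reads could be split or lost between these genes. The tables were normalized apart, so a level in TKO or WT and a level in Dox or CTL are set side by side only as a description.

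**Figure D4:**
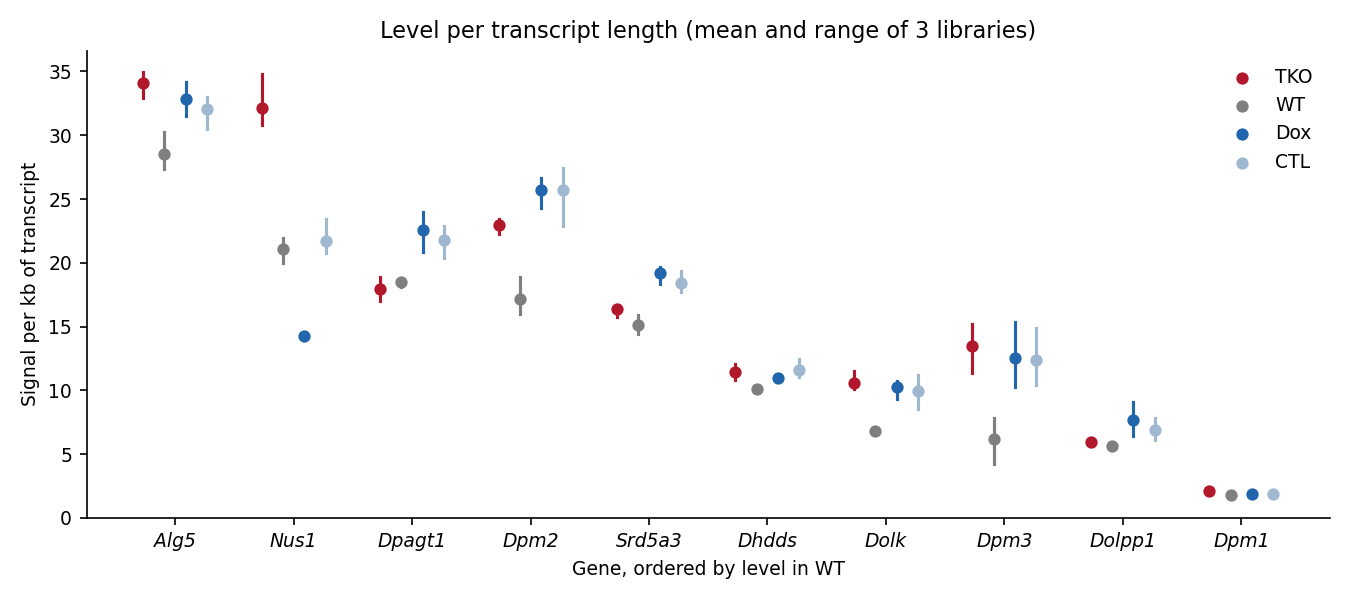
Signal per kb of transcript for the 10 genes in TKO, WT, Dox and CTL, ordered by the WT level, with points for the mean and lines for the range of 3 libraries. Nus1 has a mean of 32.2 in TKO and 21.1 in WT, and 14.2 in Dox and 21.7 in CTL, while Alg5 is highest and Dpm1 lowest in every group. The Dpm1 level is uncertain, because its exons overlap those of Gm20716.

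The wider pathway moved both ways in TKO against WT. Of 61 genes in 6 lists around these 10, 57 were tested, and 15 rose, 8 fell and 34 did not pass (limma adjusted p under 0.05), 40.4% called against 45.8% of all genes. The median log2 fold change of the 57 genes was 0.02. The balance depended on the scaling, with 24 called higher and 5 lower under scaling by total reads, 11 and 9 under median centring, and 15 and 11 after removal of the length and GC trend. Without WT replicate 2 the number called was 15. In Dox against CTL limma called 0 of the 57, edgeR 0 and DESeq2 0 (with no adjusted p for 1 gene), and 5 of the 57 (8.77%) had an unadjusted limma p under 0.05, against 5.92% of all genes. The groups did not overlap for 14 of the 57 genes (24.6%), of which 9 were higher and 5 lower in Dox, against 12.2% of all genes. With the replicate block 1 gene was called there, Tmtc1, which was named after its values were seen (-0.60, limma adjusted p = 0.033 with the block and 0.95 without).

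Among genes that assemble the lipid-linked oligosaccharide after the Dpagt1 step, 2 of 12 rose, 2 fell and 8 did not pass, with a median of -0.03. Of all genes tested, 23.2% were called higher and 22.7% lower. Alg3, the mannosyltransferase that first uses dolichol-phosphate mannose, read 13.5, 13.4 and 12.9 in TKO and 21.8, 25.6 and 23.1 in WT and fell by 0.78 on the log2 scale (SE 0.080, limma adjusted p = 0.00072). Alg8, a glucosyltransferase, fell by 0.46 (limma adjusted p = 0.0053). Alg6, the glucosyltransferase that acts just before it, rose by 0.39 (limma adjusted p = 0.014), and Alg1, which adds the first mannose, rose by 0.60 (limma adjusted p = 0.0011). The Alg6 call ended without WT replicate 2 (limma adjusted p = 0.055) or WT replicate 3 (0.052). The Alg1 value is uncertain, because 26.4% of its exon bases overlap Eef2kmt on the opposite strand and the strand setting of the counting is not given. Searched on either strand, 24.4% of its stretches of 50 bases are shared with Eef2kmt. The Alg1 change was 0.31 (limma adjusted p = 0.0066) after removal of the length and GC trend. Among subunits of the oligosaccharyltransferase, which moves the finished glycan to proteins, 4 of 12 rose and 0 fell, against 23.2% of all genes as higher, with a median of 0.14. Under scaling by total reads 8 were called higher and 0 lower. After removal of the trend 4 were called higher and 2 lower, with a median of 0.05, and the 2 lower ones, named after their values were seen, were Tmem258 (-0.42) and Ost4 (-0.21). Tusc3, an oxidoreductase subunit, rose by 0.58 (limma adjusted p = 0.0010), Krtcap2 by 0.34 (0.019), Rpn1 by 0.32 (0.0042) and the catalytic Stt3b by 0.21 (0.041). The Stt3b call ended in 8 of 15 alternatives, among them leaving out any library but TKO replicate 2 (limma adjusted p = 0.052 to 0.14). The Krtcap2 call ended without WT replicate 1 (limma adjusted p = 0.055) and after removal of the length and GC trend (0.05, adjusted p = 0.57). Of the Krtcap2 exon bases, 20.4% overlap Trim46 on the opposite strand, and 16.9% of its stretches of 50 bases are shared with Trim46 on either strand.

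Among other users of dolichol-phosphate mannose, 2 of 11 rose and 2 fell, with a median of -0.07. Of all genes tested, 23.2% were called higher and 22.7% lower. Of the GPI-anchor mannosyltransferases, Pigv rose by 0.45 (limma adjusted p = 0.0065) and Pigm by 0.24 (0.035), while Pigb fell by 0.63 (0.0022). Tmtc3, an O-mannosyltransferase for cadherins, fell by 0.67 (0.049). The Pigm call ended in 7 of 15 alternatives, among them leaving out any library but TKO replicate 2 (limma adjusted p = 0.077 to 0.11), and its change was 0.52 with the trend removed (0.0012). The Tmtc3 call ended in 9, among them leaving out TKO replicate 3 or any WT library (limma adjusted p = 0.058 to 0.14) and the trend removal (-0.36, 0.12). The Pigb and Tmtc3 values are uncertain, because 14.2% and 12.6% of their stretches of 50 bases are shared with other genes on either strand. For Pigb, 18.4% of exon bases overlap Ccpg1 or Gm44503 on the opposite strand. Tmtc3 shares its stretches with Gm6645, and its exons overlap no other gene. In the mevalonate and isoprenoid list 3 of 11 rose and 4 fell, against 23.2% and 22.7% of all genes, with a median of -0.02. The list holds the route to farnesyl pyrophosphate, which the Nus1 and Dhdds complex uses. It also holds Ggps1, Fdft1, Pdss1 and Pdss2, which make other products. Fdps, the farnesyl pyrophosphate synthase, rose by 0.37 (limma adjusted p = 0.0065) and Pdss2, of the ubiquinone side chain, by 0.54 (0.0019). Ggps1, the geranylgeranyl pyrophosphate synthase, fell by 0.38 (0.0043) and Fdft1, the squalene synthase, by 0.29 (0.0052). The Fdps and Ggps1 calls ended after removal of the length and GC trend (0.08 and -0.15), and the Fdft1 call under scaling by total reads (-0.16). All 3 values are uncertain, most of all that of Fdps, because 86.4% of the Fdps stretches of 50 bases occur in Gm43738 or other genes, against 30.7% for Fdft1 and 11.8% for Ggps1. These shares count either strand. Of the Fdps exon bases, 81.3% overlap Gm43738 on the same strand. On the opposite strand, 20.9% of the Fdft1 exon bases overlap Ctsb and 6.06% of those of Ggps1 overlap Arid4b.

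In nucleotide sugar supply 3 of 9 genes rose and 0 fell, with a median of 0.05, against 45.8% of all genes called and 23.2% as higher. The 3 act between fructose 6-phosphate and GDP-mannose. Of the same route, and named after their values were seen, Gmppa was at -0.15 (limma adjusted p = 0.12) and Pmm2 at -0.03 (0.75), and both were called lower after removal of the trend (-0.45 and -0.21), which left 3 genes higher and 2 lower. Gmppb, which makes GDP-mannose, read 36.9, 37.2 and 34.8 in TKO, against 18.4, 16.9 and 17.6 in WT, and rose by 1.00 ± 0.067 (SE, limma adjusted p = 0.00025). Pmm1, a phosphomannomutase, read 44.4, 45.04 and 41.1 in TKO, against 26.2, 24.9 and 24.96 in WT, and rose by 0.76 ± 0.065 (SE, limma adjusted p = 0.00043), or 0.37 with the trend removed (limma adjusted p = 0.012). Mpi, the mannose phosphate isomerase, rose by 0.24 (limma adjusted p = 0.025), a call that ended in 8 of 15 alternatives, among them leaving out TKO replicate 3 or any WT library (limma adjusted p = 0.057 to 0.088) and the trend removal (0.06, 0.53). Without strand information on the counting, reads of Gmppb and of Rnf123 on the opposite strand cannot be told apart (34.7% of the Gmppb exon bases overlap it, and 29.8% of its stretches of 50 bases are shared with Rnf123 or Gm20529). Of 2 proteins reported to bind the Nus1 product as Nogo-B receptor, Rtn4, which encodes Nogo-B among other forms, was at -0.03 (limma adjusted p = 0.71) and the cholesterol carrier Npc2 rose by 0.43 (0.019). The Npc2 call ended without WT replicate 2 (limma adjusted p = 0.078) or WT replicate 3 (0.054). In Dox against CTL, Rtn4 was at -0.03 and Npc2 at -0.13, neither past the threshold in any alternative run.

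**Figure D5:**
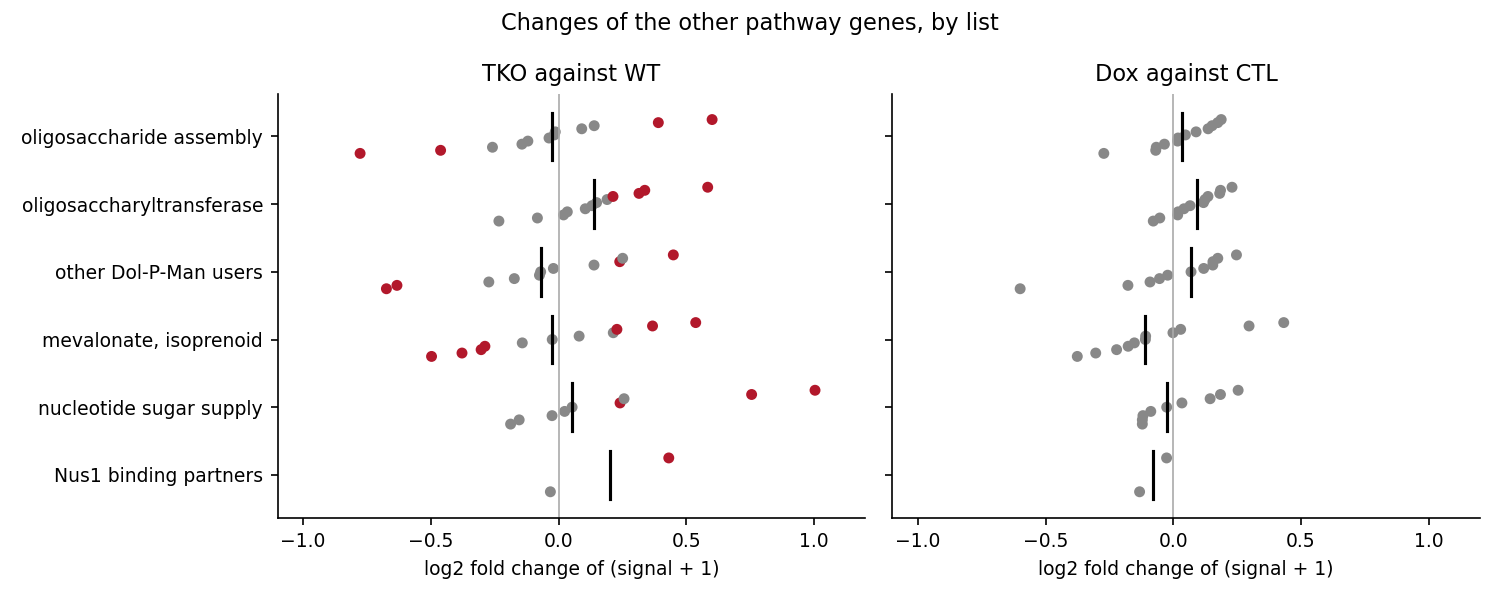
Log2 fold change of (signal + 1) of each tested gene in the 6 pathway lists in TKO against WT (left) and Dox against CTL (right), with a black line at the list median and red points where the limma adjusted p is under 0.05. In TKO against WT 15 of 57 genes are red on the higher side and 8 on the lower side, and in Dox against CTL none of the 57 is red without the replicate block.

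Genes were also ranked by how closely they followed the Nus1 pattern, as a description with no test. Likeness was the root mean square difference from Nus1 over the 12 libraries, in log2(signal + 1) centred on the mean of each table, among 10155 genes with a mean signal of at least 5 in both. Provisional gene models and clones (Gm and Rik names), and names with -ps or -rs, were passed over when the closest genes were listed. They stayed among the 10155 genes, in the median and in the places of the partner genes. The 5 closest of the remaining genes were picked for following the values of Nus1 itself. They were Mtx2 at 0.080, Ttpal at 0.082, Sar1b at 0.090, Slc25a16 at 0.1002 and Slc25a20 at 0.101. The median over all genes compared was 0.36. Mtx2, which encodes a protein of the mitochondrial outer membrane, had a signal of 46.6, 50.3 and 45.9 in TKO and 31.5 to 34.6 in WT, and of 27.0 to 27.6 in Dox and 40.5 to 41.0 in CTL. Ttpal, a relative of the tocopherol transfer protein gene, had 66.0, 63.2 and 65.2 in TKO and 41.1 to 44.4 in WT, and 30.8 to 35.4 in Dox and 46.6 to 52.7 in CTL. Their log2 fold changes, TKO over WT first and Dox over CTL after it, were 0.53 and -0.56 for Mtx2, 0.59 and -0.58 for Ttpal, 0.60 and -0.45 for Sar1b, 0.43 and -0.75 for Slc25a16 and 0.50 and -0.50 for Slc25a20. The 3' UTRs of Mtx2, Ttpal and Slc25a16 each held 1 8-base match, to which Ttpal added 1 7-base match with A and Slc25a16 added 1 7-base match to bases 2 to 8. Sar1b and Slc25a20 each held 1 7-base match with A. At least 1 match of these kinds occurred in 21.8% of all 3' UTRs of genes tested in TKO against WT, and in 42.9% of those within 20% of the Nus1 length. The 3' UTR was 1957 bases long in Mtx2, 3371 in Ttpal, 482 in Sar1b, 2027 in Slc25a16 and 747 in Slc25a20, so only that of Ttpal was within 20% of the Nus1 length. The 5 genes were picked by their values, so their matches were not tested against these shares. Among the partner genes, Dolk was in place 693 by likeness, Dpm2 in place 854, Dhdds in place 921 and Alg5 in place 1317, and the other 4 compared were in places 2967 to 4424, with Dpm1 under the minimum level.

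Markers of other cell types also differed between libraries. Summed macrophage and leukocyte markers were 54.6, 247 and 47.1 in TKO replicates 1, 2 and 3 and 34.7 to 54.4 in WT, and 26.6 to 120.4 in Dox and 37.4 to 147 in CTL. The TKO and WT ranges overlapped for the adipocyte, macrophage, endothelial, mesothelial and Schwann lists. The progenitor sum was higher in all TKO libraries, but without Col1a1 and Col3a1 its ranges overlapped too. Nus1 was at 142.1 in TKO replicate 3, above all 3 WT libraries. The adipocyte and macrophage sums of that library lay in the WT range. Its endothelial sum (128, against 77.6 to 99.9 in WT) and its mesothelial and epithelial sum (74.6, against 14.1 to 29.8) lay above it. Of the 10 progenitor markers 1 rose in TKO (Col3a1, 0.79, limma adjusted p = 0.0031) and 2 fell (Thy1, -0.86, 0.0043, and Pdgfrb, -0.47, 0.017), the 3 being named after their values were seen. The 4 adipocyte markers tested had log2 fold changes of 1.12 to 1.75 in TKO against WT with limma adjusted p of 0.063 to 0.20, and the 6 macrophage and leukocyte markers had changes of -0.09 to 1.24 with adjusted p of 0.12 to 0.90. The part of these cells in the changes of the 10 genes was not tested.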

How the data were processed

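Stranded messenger RNA libraries were sequenced as single reads, per the labels' protocols. TopHat2 2.0.12, featureCounts 1.4.6, edgeR 3.8.6 and StringTie 1.2.2, with GRCm38 (mm10), are listed in the submitters' processing notes; the strand setting of the counting is not given in the sources used here. The deposited signal is gene counts that the authors brought to the same library size with 1 further factor for each library. Their log2 fold changes and false discovery rates (adjusted p-values) are given in sentences that name the authors' deposited table, and the deposited likelihood ratio score was not used. Only genes above 0 in all 6 libraries are listed, with 0 values of 0. Whole reads were recovered from the signal steps (100% of values whole within 0.1) and set the depth, 19301969 to 83461531 reads; counting error is only part of the spread between libraries.

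The design allowed for raw counts, but the files hold scaled signal, so limma 3.58.1 with a trend was run in R 4.3.3 on log2(signal + 1), each table alone, for genes that reached a signal of 1 in 3 or more of 6 libraries (12649 and 12634). P-values were adjusted by Benjamini-Hochberg over every gene tested (threshold 0.05), and SE is the standard error from limma. edgeR 4.0.16 and DESeq2 1.42.0 were run on recovered reads as alternatives. The others were median centring, scaling by total reads, a pseudocount of 0.1, no filter, the replicate number as a block, a natural spline in transcript length and GC content (4 degrees of freedom) subtracted, both together, and leaving out each library. Only the main limma fit, without the block or the spline, was tested on simulated counts. The simulation held far fewer changed genes than were called in TKO against WT. Same-numbered Dox and CTL libraries deviated together from their group means (correlations of 0.86, 0.58 and 0.74 across genes), so these numbers pair the samples; in TKO and WT they were 0.45, -0.13 and -0.29, so only the number is shared. The columns of Dox replicates 2 and 3 carry the same sequencing suffix and were told apart by replicate number. Python 3.11.15 with pandas 2.3.3, numpy 2.4.6 and matplotlib 3.10.9 was used.

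The 10 genes, the pathway lists and the marker lists were chosen with earlier results of these data known. All 10 genes were named, and from each of the other lists up to 4 genes with the smallest p among those past the threshold, plus Rtn4 and Npc2. The transcript of each gene came from GENCODE vM21. Of the 61 genes in the pathway lists, 4 were not analysed here.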

Additional observations from a re-analysis of the deposited data

How the results depend on the processing

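The changes of the 10 genes were recomputed under each alternative, and the 4 calls among the partner genes in TKO against WT did not hold equally. Nus1 kept its direction in both comparisons under every alternative run, and in TKO against WT it moved to 0.73 under scaling by total reads and to 0.81 with the length and GC trend removed, with or without the replicate block. The number of partner genes called there was 2 with that trend removed, 1 with the replicate block as well, and 3 to 4 when each library was left out. Removal of the trend left 5791 genes called in all, and scaling by total reads called 66.7% of its genes as higher, against 50.6% with the deposited scaling. Leaving out each library gave 3938 to 5723 called genes in TKO against WT, and 0 to 0 when the libraries were Dox and CTL. With the replicate block 5101 genes were called for TKO over WT and 265 for Dox over CTL, where 931 were called when the trend was also removed and 99 by DESeq2. Pathway genes called in Dox against CTL numbered 1 with the replicate block (1.75%, against 2.1% of all genes) and 8 with the trend removed as well (14%, 5 higher and 3 lower, against 7.38%). Partner gene calls were the same with and without the block alone. Several changes that did not pass turned direction. In TKO against WT these were Dpagt1 (0.080) and Rtn4 (0.094) under scaling by total reads, and Srd5a3 (-0.067), Dolpp1 (-0.13) and Rtn4 (0.11) with the trend removed. In Dox against CTL they were Dpm2 under scaling by total reads (-0.012), edgeR (-0.013) and DESeq2 (-0.016), and Dpm1 with the trend removed (0.0079). Leaving out each library in Dox against CTL gave -0.062 to 0.12 for Dolk, -0.054 to 0.020 for Dpm1, -0.079 to 0.048 for Dpm2, -0.13 to 0.14 for Dpm3, -0.0021 to 0.060 for Alg5 and -0.13 to 0.053 for Rtn4. The cause of these moves was not tested. Depth limits Dpm1 most, with 77 to 456 recovered reads per library.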

Other observations

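A few genes of the pathway lists other than the 10 also hold miR-26 seed matches to bases 2 to 8 in the 3' UTR, and their values are given without a reading. They were singled out after their values were seen. Pdss2, with an 8-base match, had a signal of 7.46, 7.60 and 7.51 in TKO, against 4.80, 4.87 and 4.96 in WT, and of 3.47, 5.02 and 3.94 in Dox, against 5.43, 5.84 and 5.61 in CTL. No library overlapped between the groups of either comparison, and the change with doxycycline, -0.38, did not pass (limma adjusted p = 0.82, and 0.16 with the replicate block). Tmtc3, also with an 8-base match, was lower in every TKO library than in every WT library, at 132, 71.8 and 121 in TKO, against 184, 172 and 149 in WT. In Dox it read 84.3, 64.4 and 101.8, against 83.8, 74.5 and 92.8 in CTL. Dpy19l4, with 2 matches of 7 bases, read 67.7, 46.6 and 63.6 in TKO and 65.2, 57.6 and 55.9 in WT, and 46.1, 41.0 and 47.9 in Dox, against 51.1, 52.6 and 49.1 in CTL (log2 fold change -0.18, limma adjusted p = 0.87).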
